A study of Mus musculus with 12 samples.

Results

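The genes described here are 48 listed genes of the mitotic spindle and the kinetochore. They were chosen by name, with earlier results of these data known. They include the cyclins and kinase that start mitosis, the spindle checkpoint, mitotic kinases, kinesin motors, spindle assembly proteins, the Ndc80 complex, centromere proteins, condensin and chromosome structure genes, and the machinery of anaphase. A gene counted as measured when a probe set of the array carried its symbol alone, and it was followed through whichever of its probe sets was brightest on average. By that rule 47 of the 48 were measured, of 18193 genes in all. Ccnb1 has no such probe set and was not analysed here.

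The samples were mammary glands of virgin C57BL/6 mice from which the ovaries had been removed, 1 array per mouse. Ccnd1-/- mice (KO), which lack the gene for cyclin D1, carried estradiol pellets in 3 mice and placebo pellets in 3. Ccnd1+/+ mice (WT) were split the same way, into 3 with estradiol and 3 with placebo. The estradiol pellets held 0.72 mg for release over 60 days, and the mice were treated for 7 days. The deletion is present in every tissue of a KO mouse, and the labels leave unstated which of the glands was used and whether lymph nodes were cut away.

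Cyclin D1 binds Cdk4 and Cdk6, which phosphorylate the retinoblastoma protein and so let E2F factors switch on the genes of DNA replication. The spindle and kinetochore genes follow later in the same cycle: they are transcribed as cells approach mitosis, mainly through the B-Myb-MuvB complex and Foxm1, and their messages are low in cells that do not divide. Estradiol is known to drive division of the mammary epithelium, and lymphocytes, which a gland holds in its stroma and lymph node, divide as well. In a whole gland, more dividing cells and more RNA of a gene per dividing cell cannot be told apart.

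The array values are log2 intensities, with medians between 5.73 and 5.80 on the 12 arrays, and Pearson's r between pairs of arrays ran from 0.945 to 0.992 over all probe sets. The Ccnd1 probe set stood between 7.24 and 7.68 on the 6 KO arrays and between 8.50 and 10.82 on the 6 WT arrays, a difference of -1.93 (exact two-sided permutation test, p = 0.00216, the smallest this number of arrays allows). Lymphocyte content differed between glands of the same group, and was followed as the mean of Cd79a, a B cell receptor chain, and Cd3e, a T cell receptor chain, centred over the 12 arrays. This lymphocyte covariate was -1.70, 1.03 and 0.03 in KO estradiol glands, 1.46, -1.34 and 1.82 in KO placebo glands, -1.93, 0.49 and -1.91 in WT estradiol glands, and 2.05, 1.42 and -1.43 in WT placebo glands. The 11 measured luminal epithelial markers moved differently: their centred mean was between -1.85 and -0.66 in KO estradiol glands, -1.79 and 0.17 in KO placebo glands, 1.26 and 2.70 in WT estradiol glands, and -0.12 and 0.66 in WT placebo glands. Krt18, a luminal keratin, read 4.50 to 6.54 in KO estradiol glands, 4.61 to 7.80 in KO placebo glands, 9.05 to 11.22 in WT estradiol glands and 7.36 to 8.42 in WT placebo glands. Cdh1, the cadherin of all epithelia, was under the lower quartile of its array on 3 arrays, KO estradiol 1, KO estradiol 2 and KO placebo 2.

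Many promoters of these genes hold 1 or both of 2 short sequences, shown here as a feature of the members other than their expression. The cell cycle genes homology region, TTTGAA or TTCGAA, is where the MuvB complex binds, and CCAAT is bound by NF-Y. RefSeq (GRCm38.p6) gave a window from 250 bases before to 30 bases after the start for 40 of the 47 members. On either strand, TTTGAA or TTCGAA stood in 26 of the 40 windows (65.0%), against 18.6% of all 27025 windows of that length. CCAAT stood in 26 (65.0%), against 36.6% of all windows, and both stood in 22 (55.0%), against 7.07%. In 68 windows of further mitotic genes that are no members, the shares were 52.9% for TTTGAA or TTCGAA, 66.2% for CCAAT and 36.8% for both. In 29 windows of DNA replication genes they were 20.7%, 62.1% and 17.2%. CCAAT was therefore not particular to the members. The windows of 5 of the 6 genes whose estradiol response differed between the genotypes by the test of the interaction are printed 5′ to 3′ on the strand of the gene (Pbk is the other gene), with these letters, read on either strand, in capitals. Cdc20 lies at chr4:118437314-118437593 (minus strand), Cdk1 at chr10:69352883-69353162 (minus strand), Nek2 at chr1:191821223-191821502 (plus strand), Trip13 at chr13:73937738-73938017 (minus strand) and Melk at chr4:44300667-44300946 (plus strand).
Cdc20: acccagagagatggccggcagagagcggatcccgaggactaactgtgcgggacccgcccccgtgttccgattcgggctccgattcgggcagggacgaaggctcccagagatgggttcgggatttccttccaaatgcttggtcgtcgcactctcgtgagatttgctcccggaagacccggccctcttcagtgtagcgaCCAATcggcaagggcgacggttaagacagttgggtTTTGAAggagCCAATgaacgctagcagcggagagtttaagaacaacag
Cdk1: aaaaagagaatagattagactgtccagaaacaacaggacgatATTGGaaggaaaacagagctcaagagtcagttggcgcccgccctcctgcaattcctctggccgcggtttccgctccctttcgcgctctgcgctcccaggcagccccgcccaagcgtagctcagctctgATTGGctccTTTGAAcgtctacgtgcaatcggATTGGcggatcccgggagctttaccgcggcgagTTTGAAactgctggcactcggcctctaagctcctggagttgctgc
Nek2: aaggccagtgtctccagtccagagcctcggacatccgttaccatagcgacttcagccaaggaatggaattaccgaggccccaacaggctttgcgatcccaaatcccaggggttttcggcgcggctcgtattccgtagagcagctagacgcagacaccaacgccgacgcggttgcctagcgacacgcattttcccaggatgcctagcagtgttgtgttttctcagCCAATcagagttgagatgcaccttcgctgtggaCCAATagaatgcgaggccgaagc
Trip13: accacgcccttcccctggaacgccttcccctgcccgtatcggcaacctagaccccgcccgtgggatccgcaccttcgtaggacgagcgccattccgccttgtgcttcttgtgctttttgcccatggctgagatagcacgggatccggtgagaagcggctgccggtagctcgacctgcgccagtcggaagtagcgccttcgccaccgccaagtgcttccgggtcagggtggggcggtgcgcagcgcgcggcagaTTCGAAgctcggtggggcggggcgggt
Melk: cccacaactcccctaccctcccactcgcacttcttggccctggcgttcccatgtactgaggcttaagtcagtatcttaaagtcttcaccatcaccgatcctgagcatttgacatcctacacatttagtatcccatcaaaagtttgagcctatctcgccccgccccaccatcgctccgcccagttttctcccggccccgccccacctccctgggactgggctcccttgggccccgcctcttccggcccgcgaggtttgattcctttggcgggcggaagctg
Cdc20 and Cdk1 have both elements, Nek2 has CCAAT only, Trip13 has TTCGAA only, and the Melk window has neither. The absence of the letters says only that they are not in this window. Among the 26 members with TTTGAA or TTCGAA, the median response to estradiol in WT glands after lymphocyte adjustment was 1.07 and 11 were called, and among the 14 without it the median was 0.70 and 7 were called, where 3.05% of all genes were called higher. The median was higher with the element and the share called was not, so no order was read from this split.

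Across the 12 glands the mitotic genes moved as a block. The range of a member over the arrays had a median of 2.18 on the log2 scale, from 0.55 for Kif11 to 4.34 for Mki67. The array of KO placebo 3 was the highest for 39 of the 47 members, and that of WT placebo 3 was the lowest for 27. Over the 1081 pairs of members, the median Pearson's r across the 12 arrays was 0.827, given as a description, since the arrays share their lymphocyte content and their group. The r with the mean of the other members was above 0.9 for 28 members and under 0.5 for 2, Kif15 and Cenpk. Cenph, a protein of the inner kinetochore, was under the lower quartile of its array on all 12 arrays, so its differences are between dim signals, and Bub1 and Ncapg were so on some.

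**Figure D1:**
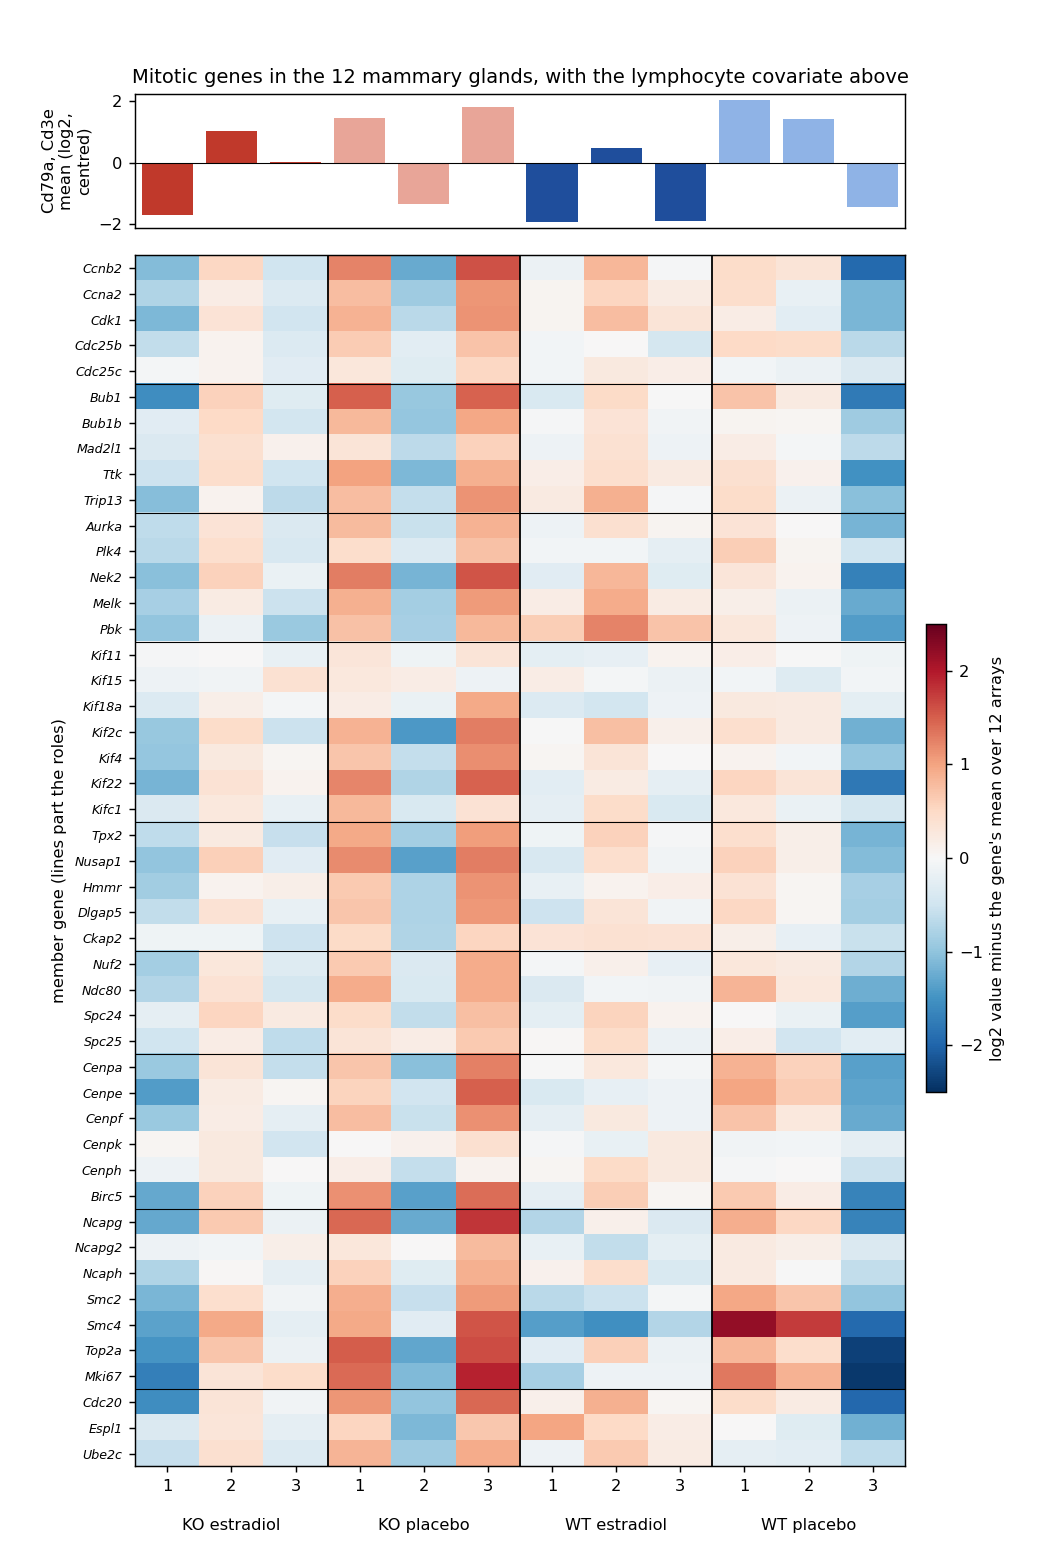
Heat map of the 47 measured members (rows, parted by role) over the 12 arrays (columns, by group and replicate number), as log2 intensity minus the mean of the gene over all arrays. The bars above give the lymphocyte covariate of each array on the log2 scale, and KO placebo 3, at 1.82, is the array where 39 members were highest.

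The levels followed the lymphocyte covariate within groups. Mki67, the proliferation antigen that coats mitotic chromosomes, had the steepest slope. Mki67 read 6.95, 8.98 and 9.11 in KO estradiol glands, 10.07, 7.56 and 10.58 in KO placebo glands, 7.82, 8.52 and 8.52 in WT estradiol glands and 9.97, 9.51 and 6.24 in WT placebo glands. In each group the gland lowest in the covariate was the lowest in Mki67 too, and all groups overlapped. Within WT estradiol glands the order was weak, since glands 2 and 3 read the same at covariates of 0.49 and -1.91. In the limma fit with the covariate beside the 4 groups, Mki67 gained 0.82 log2 units per log2 unit of covariate (SE 0.13, adjusted p = 0.00133). Top2a, the topoisomerase that untangles chromosomes before anaphase, had a slope of 0.80 ± 0.08 (SE), Ncapg, a condensin subunit, 0.71 ± 0.08, and Ccnb2, a B-type cyclin, 0.68 ± 0.07. The slope passed an adjusted p of 0.05 for 40 of the 47 members, all positive, where 29.2% of all genes passed it in either direction and 14.4% with a positive slope. The median slope of the members was 0.40, against -0.03 for all genes.

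The covariate took away a median of 85.6% of the variance of the members within groups, against 33.8% for all genes. It took more than 50% from 40 members and more than 80% from 28, with 94.7% for Nek2 at the top. The median SD within groups was 0.281 with the covariate and 0.696 without it. The 7 members whose slope was not called were Ckap2, Kif11, Kif15, Kif18a, Ncapg2, Cenpk and Spc25, and their slopes ran from -0.02 for Kif15 to 0.18 for Ckap2. Markers of T cells and B cells rose with the covariate too, 11 of 11 and 9 of 9, as its makeup implies. Of the 7 germinal centre B cell markers, a class of B cells that divides fast, 4 had a called positive slope. The part of dividing lymphocytes in the slopes was not tested.

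**Figure D2:**
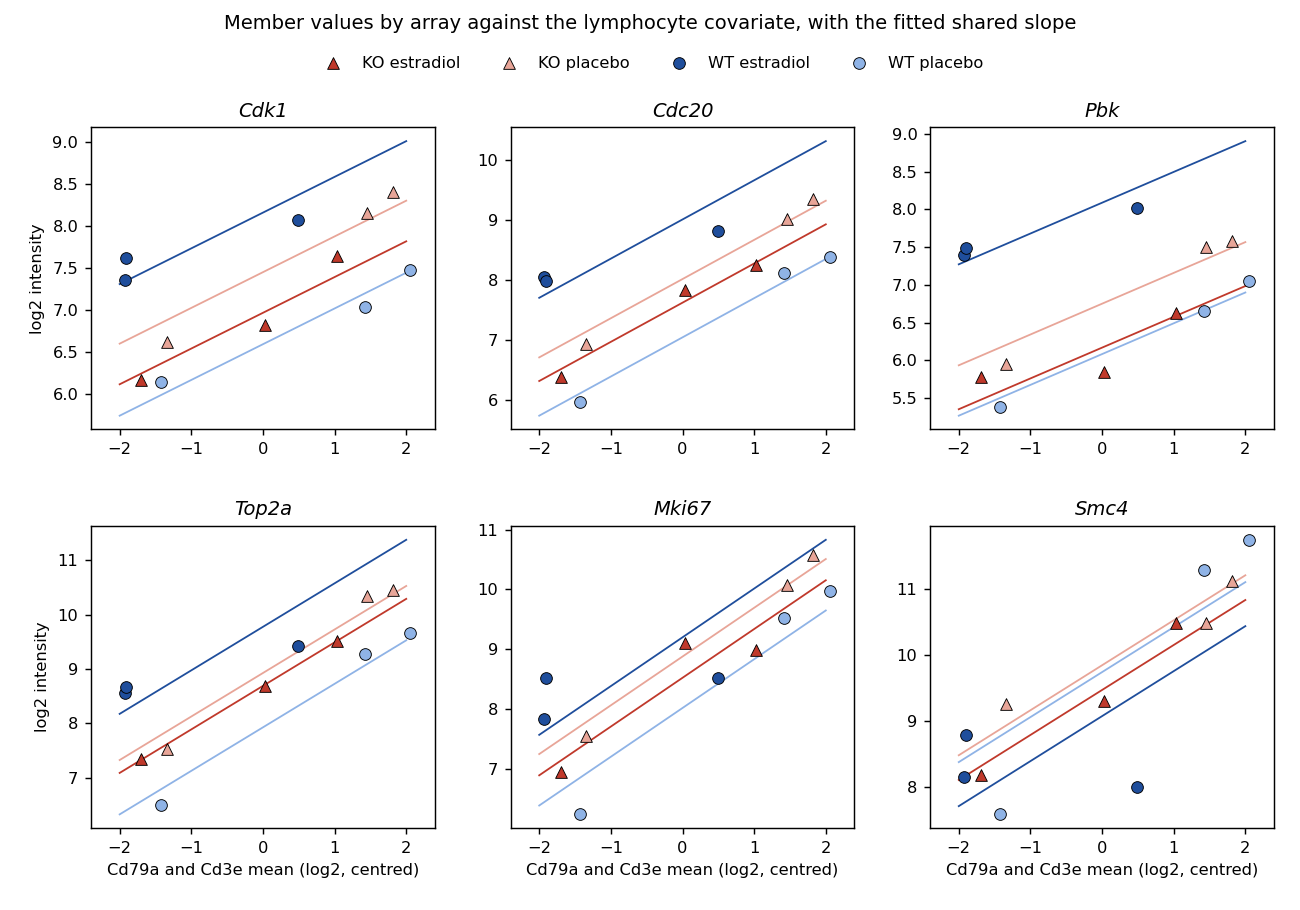
Log2 intensity of 6 members on each array (vertical axes) against the lymphocyte covariate (horizontal axes, log2, centred over 12 arrays), with the fitted line of each group at the slope all groups share. For Pbk the 3 WT estradiol points lie at 7.39 or above and the WT placebo points at 7.05 or below, while the Mki67 points of all groups overlap.

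Without the covariate, none of the 47 members passed the adjusted p of 0.05 in any of the 5 comparisons (limma). The KO response to estradiol had 0 called members (0.0989% of all genes), with 0 higher and 1 lower at an unadjusted p under 0.05, where 5.79% and 2.53% of all genes were. The WT response also had 0 (1.88% of all genes), with 1 higher and 0 lower unadjusted (10.2% and 3.25% of all genes). KO minus WT on estradiol had 0 (1.12% of all genes), with 0 higher and 1 lower unadjusted (4.67% and 8.83%). KO minus WT on placebo had 0 (0% of all genes), with 1 higher and 0 lower unadjusted (1.47% and 0.561%). The interaction, KO response minus WT response, had 0 (0.011% of all genes), with 0 higher and 2 lower unadjusted (1.5% and 4.94%).

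The members still leaned to one side in several comparisons. The median of the KO response was -0.65, with 46 of 47 members below 0, where 49% of all genes were. The median of the WT response was 0.30, with 36 above 0 (52% of all genes). The medians of KO minus WT were -0.26 on estradiol, with 37 below 0 (44.8% of all genes), and 0.53 on placebo, with 47 above 0 (54.3%), and that of the interaction was -0.77, with 46 below 0 (49.9%). Single glands moved all 5 medians by more than 1.5 times. With arrays left out in turn, the KO response ran from -1.15 without KO placebo 2 to -0.28 without KO placebo 3, and the WT response from -0.11 without WT placebo 3 to 0.48 without WT placebo 1. KO minus WT on estradiol ran from -0.54 without KO estradiol 2 to 0.02 without KO estradiol 1, and on placebo from 0.13 without WT placebo 3 to 1.10 without KO placebo 2. The interaction ran from -1.35 without KO placebo 2 to -0.37 without WT placebo 3.

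At the level of single genes the unadjusted differences were largest for Pbk, a mitotic kinase, and Smc4, a core ATPase of condensin. Pbk read 5.78, 6.62 and 5.84 in KO estradiol glands, 7.50, 5.95 and 7.58 in KO placebo glands, 7.39, 8.01 and 7.49 in WT estradiol glands and 7.05, 6.65 and 5.38 in WT placebo glands. Every WT estradiol gland lay above every WT placebo gland and above every KO estradiol gland, while KO estradiol and KO placebo glands overlapped. Pbk differed by 1.27 ± 0.51 (SE) in the WT response (limma, adjusted p = 0.297) and by -2.20 ± 0.72 in the interaction (adjusted p = 0.565). Smc4 read 8.19, 10.48 and 9.31 in KO estradiol glands, 10.48, 9.26 and 11.11 in KO placebo glands, 8.15, 8.01 and 8.80 in WT estradiol glands and 11.74, 11.28 and 7.59 in WT placebo glands. Smc4 was highest in the lymphocyte-rich WT placebo glands, which lay above all WT estradiol glands, while WT placebo 3 lay below them all. Its WT response was -1.89 ± 0.998 (adjusted p = 0.464), the other way from most members, and its other 2 probe sets gave -1.79 and -1.85.

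The other members at the ends of the unadjusted comparisons were these. In the WT response, the largest positive differences after Pbk belonged to Espl1 (1.04), the separase that cuts cohesin, Melk (0.86), a kinase of dividing cells, and Cdk1 (0.80), and the lowest after Smc4 to Smc2 (-0.65), Kif18a (-0.38) and Ncapg2 (-0.35). The KO response was lowest for Bub1 (-1.10), Mki67 (-1.05), Trip13 (-0.98) and Smc4 (-0.95), and Cenph, at 0.16, was its only positive value. On estradiol, KO minus WT was lowest for Pbk (-1.55), Trip13 (-0.91), Melk (-0.83) and Cdk1 (-0.81), and highest for Smc4 (1.01), Ncapg2 (0.33), Kif18a (0.22) and Smc2 (0.15). On placebo it was highest for Nek2 (0.99), Top2a (0.97), Bub1 (0.96) and Kif22 (0.96), and closest to 0 for Cenph (0.07) and Smc4 (0.08). The interaction was lowest, after Pbk, for Cdc20 (-1.75), Cdk1 (-1.65) and Melk (-1.61), and highest for Smc4 (0.93), Kif18a (-0.02), Ncapg2 (-0.04) and Smc2 (-0.09). None of these passed the test.

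With the covariate in the fit, 22 of the 47 members were called higher on estradiol in WT glands and none lower. Of all genes, 3.05% were called higher and 3.48% in either direction. The median difference of the members was 0.98, with 43 above 0 (49.8% of all genes), against a median of 0.00 over all genes. The called members came from all 9 role groups: 3 of 5 cyclin, Cdk1 and Cdc25 genes, 4 of 5 checkpoint genes, 4 of 5 kinases, 3 of 7 kinesins, 1 of 5 spindle assembly proteins, 1 of 4 Ndc80 complex genes, 2 of 6 centromere genes, 2 of 7 condensin and chromosome genes and 2 of 3 anaphase genes. By the covariate, 2 of 3 WT estradiol glands were poor in lymphocytes and 2 of 3 WT placebo glands rich in them, and the fit applies 1 slope to all groups. The covariate averaged -1.12 in WT estradiol and 0.68 in WT placebo glands, so a positive slope adds to the difference. Without it the median was 0.30 and 0 were called. The centred member mean moved less per covariate unit in WT estradiol glands (-0.13 at -1.93, 0.29 at 0.49) than in WT placebo glands (-1.07 at -1.43, 0.43 at 2.05). The rises given below are those of this fit. The number called was smallest, 9 members, without WT placebo 3, and 13 without WT placebo 2. The 8 members called whichever array was left out were Cdk1, Mad2l1, Trip13, Nek2, Melk, Pbk, Spc24 and Cdc20. None of these 8 is a kinesin, a spindle assembly protein, a centromere gene or a condensin and chromosome gene. In the same glands 10 of the 11 luminal markers and 9 of the 9 basal markers were above 0, 2 and 3 of them called. With the luminal mean as a second covariate 10 members stayed past the threshold, and the median over all 47 members was 1.05. The part of epithelial content in the rise was not tested.

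Among the genes that start mitosis, Cdk1, the kinase itself, and its cyclins rose. Cdk1 read 6.17, 7.64 and 6.82 in KO estradiol glands, 8.15, 6.61 and 8.40 in KO placebo glands, 7.36, 8.07 and 7.62 in WT estradiol glands and 7.47, 7.03 and 6.14 in WT placebo glands. WT placebo 3 was at the bottom, the lymphocyte-rich KO placebo glands were at the top, and the WT groups overlapped. Adjusted for the covariate, Cdk1 rose by 1.57 ± 0.20 (SE), a fold of 2.97 (limma, adjusted p = 0.00417). Ccnb2 read 6.31, 7.92 and 6.92 in KO estradiol glands, 8.65, 6.14 and 8.99 in KO placebo glands, 7.27, 8.23 and 7.38 in WT estradiol glands and 7.87, 7.73 and 5.45 in WT placebo glands. Ccnb2 had the same glands at both ends, with overlap between the groups, and rose by 1.83 ± 0.28 (adjusted p = 0.00834), and Ccna2, the cyclin of S phase and early mitosis, by 1.31 ± 0.24 (adjusted p = 0.0179). The phosphatases that activate Cdk1 had smaller differences that were not called, 0.25 for Cdc25b and 0.52 for Cdc25c.

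The spindle checkpoint holds anaphase until all kinetochores are attached. Trip13 read 5.50, 6.65 and 5.92 in KO estradiol glands, 7.33, 5.98 and 7.68 in KO placebo glands, 6.80, 7.45 and 6.54 in WT estradiol glands and 7.03, 6.41 and 5.52 in WT placebo glands. Trip13, the ATPase that recycles Mad2, was low in KO estradiol glands, where 2 of 3 lay under every WT estradiol gland. It rose by 1.36 ± 0.17 in WT glands (adjusted p = 0.00386). Mad2l1 read 7.91, 8.68 and 8.37 in KO estradiol glands, 8.59, 7.62 and 8.86 in KO placebo glands, 8.15, 8.66 and 8.14 in WT estradiol glands and 8.45, 8.24 and 7.63 in WT placebo glands. Mad2l1, the inhibitor of Cdc20, varied little and overlapped between all groups, yet had a small SE once adjusted, with a rise of 0.72 ± 0.12 (adjusted p = 0.0141). Bub1 and Ttk, the kinases that assemble the checkpoint, rose by 1.52 ± 0.28 (adjusted p = 0.0191) and 1.44 ± 0.34 (adjusted p = 0.0482). Bub1b read 6.58, 7.35 and 6.40 in KO estradiol glands, 7.66, 5.90 and 7.82 in KO placebo glands, 6.83, 7.20 and 6.77 in WT estradiol glands and 6.93, 6.90 and 5.97 in WT placebo glands. Bub1b, the BubR1 subunit of the checkpoint complex, was lowest in KO placebo 2 and WT placebo 3 and overlapped between groups, and its difference of 0.97 was not called (adjusted p = 0.104).

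The mitotic kinases included Pbk, the member with the largest rise in this fit. Pbk rose by 2.01 ± 0.21, a fold of 4.02 with a 95% interval from 1.53 to 2.48 on the log2 scale (adjusted p = 0.00165). Melk read 5.39, 6.42 and 5.69 in KO estradiol glands, 7.11, 5.37 and 7.28 in KO placebo glands, 6.40, 7.15 and 6.43 in WT estradiol glands and 6.37, 6.07 and 4.96 in WT placebo glands. The 3 WT estradiol glands lay just above the highest WT placebo gland, and the KO estradiol glands overlapped both. Melk rose by 1.64 ± 0.19 (adjusted p = 0.00268). Nek2 read 5.02, 6.64 and 5.90 in KO estradiol glands, 7.35, 4.91 and 7.64 in KO placebo glands, 5.79, 6.91 and 5.78 in WT estradiol glands and 6.38, 6.15 and 4.38 in WT placebo glands. Nek2, which splits the centrosomes, was lowest in WT placebo 3 and KO placebo 2, the placebo glands with few lymphocytes, and it rose by 1.68 ± 0.22 (adjusted p = 0.00407). Aurka read 5.99, 6.96 and 6.27 in KO estradiol glands, 7.42, 6.07 and 7.51 in KO placebo glands, 6.51, 7.04 and 6.69 in WT estradiol glands and 6.97, 6.65 and 5.47 in WT placebo glands. Aurka, the Aurora A kinase of the spindle poles, overlapped between all 4 groups, and rose by 1.05 ± 0.18 (adjusted p = 0.014). Plk4, the kinase of centriole duplication, had 0.28 and was not called.

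The motors differed among themselves. Kif2c, which shortens microtubules at the centromere, rose by 1.46 ± 0.30, and the chromokinesins Kif22 and Kif4 by 1.26 ± 0.28 and 1.10 ± 0.22 (adjusted p = 0.0311, 0.0386 and 0.0272). Kif11 read 5.68, 5.73 and 5.52 in KO estradiol glands, 6.02, 5.60 and 6.03 in KO placebo glands, 5.47, 5.50 and 5.80 in WT estradiol glands and 5.88, 5.70 and 5.60 in WT placebo glands. Kif11, the motor that pushes the spindle poles apart, hardly varied between glands, and its difference was -0.04 ± 0.15. Its other 2 probe sets gave 1.01 and 0.94, so the value depends on the probe set. Kif15, Kif18a and Kifc1 had 0.12, -0.12 and 0.50, and none was called.

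Of the proteins that build the spindle, Tpx2, the activator of Aurora A, rose. Tpx2 read 5.88, 6.73 and 5.94 in KO estradiol glands, 7.44, 5.65 and 7.54 in KO placebo glands, 6.40, 7.08 and 6.47 in WT estradiol glands and 6.92, 6.64 and 5.35 in WT placebo glands. All groups overlapped, with the WT estradiol glands closest together. Tpx2 rose by 1.13 ± 0.23 (adjusted p = 0.0287), and Nusap1, Ckap2, Hmmr and Dlgap5, which bind or bundle spindle microtubules, had 1.11, 0.89, 0.79 and 0.72 without passing the test.

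The Ndc80 complex, which couples kinetochores to microtubules, was split. Spc24 read 6.62, 7.38 and 7.07 in KO estradiol glands, 7.31, 6.24 and 7.60 in KO placebo glands, 6.60, 7.41 and 6.94 in WT estradiol glands and 6.86, 6.68 and 5.46 in WT placebo glands. Spc24 was lowest in WT placebo 3, well apart from the rest, overlapped between all groups, and rose by 1.30 ± 0.14 (adjusted p = 0.00212). Ndc80 read 5.45, 6.54 and 5.73 in KO estradiol glands, 7.10, 5.79 and 7.10 in KO placebo glands, 5.81, 6.10 and 6.08 in WT estradiol glands and 7.02, 6.43 and 4.95 in WT placebo glands. Ndc80 was at its highest in lymphocyte-rich placebo glands of both genotypes, and its difference of 0.58 ± 0.28 was not called (adjusted p = 0.282). Nuf2 and Spc25 had 0.59 and 0.54, not called.

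At the centromere, Birc5, the survivin subunit of the chromosomal passenger complex, rose by 1.60 ± 0.28 (adjusted p = 0.0151). Cenph read 3.36, 3.73 and 3.49 in KO estradiol glands, 3.66, 2.88 and 3.58 in KO placebo glands, 3.53, 3.96 and 3.72 in WT estradiol glands and 3.45, 3.50 and 2.95 in WT placebo glands. The WT estradiol glands lay just above the WT placebo glands, all under the lower quartile of their arrays, and Cenph rose by 0.75 ± 0.12 (adjusted p = 0.0102). Cenpa read 6.12, 7.37 and 6.45 in KO estradiol glands, 7.75, 6.01 and 8.31 in KO placebo glands, 7.05, 7.32 and 7.00 in WT estradiol glands and 7.91, 7.63 and 5.68 in WT placebo glands. Cenpa, the histone variant that marks the centromere, was high in both lymphocyte-rich WT placebo glands, which lay above all WT estradiol glands, and its adjusted difference of 0.98 ± 0.32 was not called (adjusted p = 0.125). Cenpf, Cenpe and Cenpk had 0.86, 0.55 and 0.15, not called.

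Among the chromosome genes, Top2a and Ncaph, the kleisin of condensin, rose. Top2a read 7.35, 9.52 and 8.69 in KO estradiol glands, 10.33, 7.53 and 10.45 in KO placebo glands, 8.55, 9.42 and 8.68 in WT estradiol glands and 9.66, 9.27 and 6.49 in WT placebo glands. Top2a had WT placebo 3 far below all other WT glands, with WT placebo 2 inside and WT placebo 1 above the range of the WT estradiol glands, and it rose by 1.85 ± 0.32 (adjusted p = 0.0144). Ncaph rose by 0.68 ± 0.15 (adjusted p = 0.0414). Ncapg read 4.26, 6.20 and 5.40 in KO estradiol glands, 6.98, 4.29 and 7.33 in KO placebo glands, 4.82, 5.67 and 5.17 in WT estradiol glands and 6.45, 6.06 and 3.88 in WT placebo glands. Ncapg was lowest in WT placebo 3 and high in the other placebo glands with many lymphocytes, and its difference of 1.04 ± 0.32 was not called (adjusted p = 0.112). Mki67 had 1.18 ± 0.52 (adjusted p = 0.244), Smc2 and Ncapg2 0.14 and -0.19, and Smc4, at -0.66, remained the lowest of all members.

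The machinery of anaphase rose in part. Cdc20 read 6.37, 8.25 and 7.83 in KO estradiol glands, 9.02, 6.93 and 9.36 in KO placebo glands, 8.05, 8.81 and 7.98 in WT estradiol glands and 8.38, 8.12 and 5.96 in WT placebo glands. Cdc20, the activator of the anaphase-promoting complex, was lowest in WT placebo 3 and KO estradiol 1, and estradiol and placebo glands overlapped in both genotypes. It rose by 1.97 ± 0.23, a fold of 3.91 (adjusted p = 0.00293), and Espl1 rose by 1.61 ± 0.34 (adjusted p = 0.0333). Ube2c, the ubiquitin-conjugating enzyme of the same complex, had 1.20 ± 0.28 and missed the threshold (adjusted p = 0.0503).

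**Figure D3:**
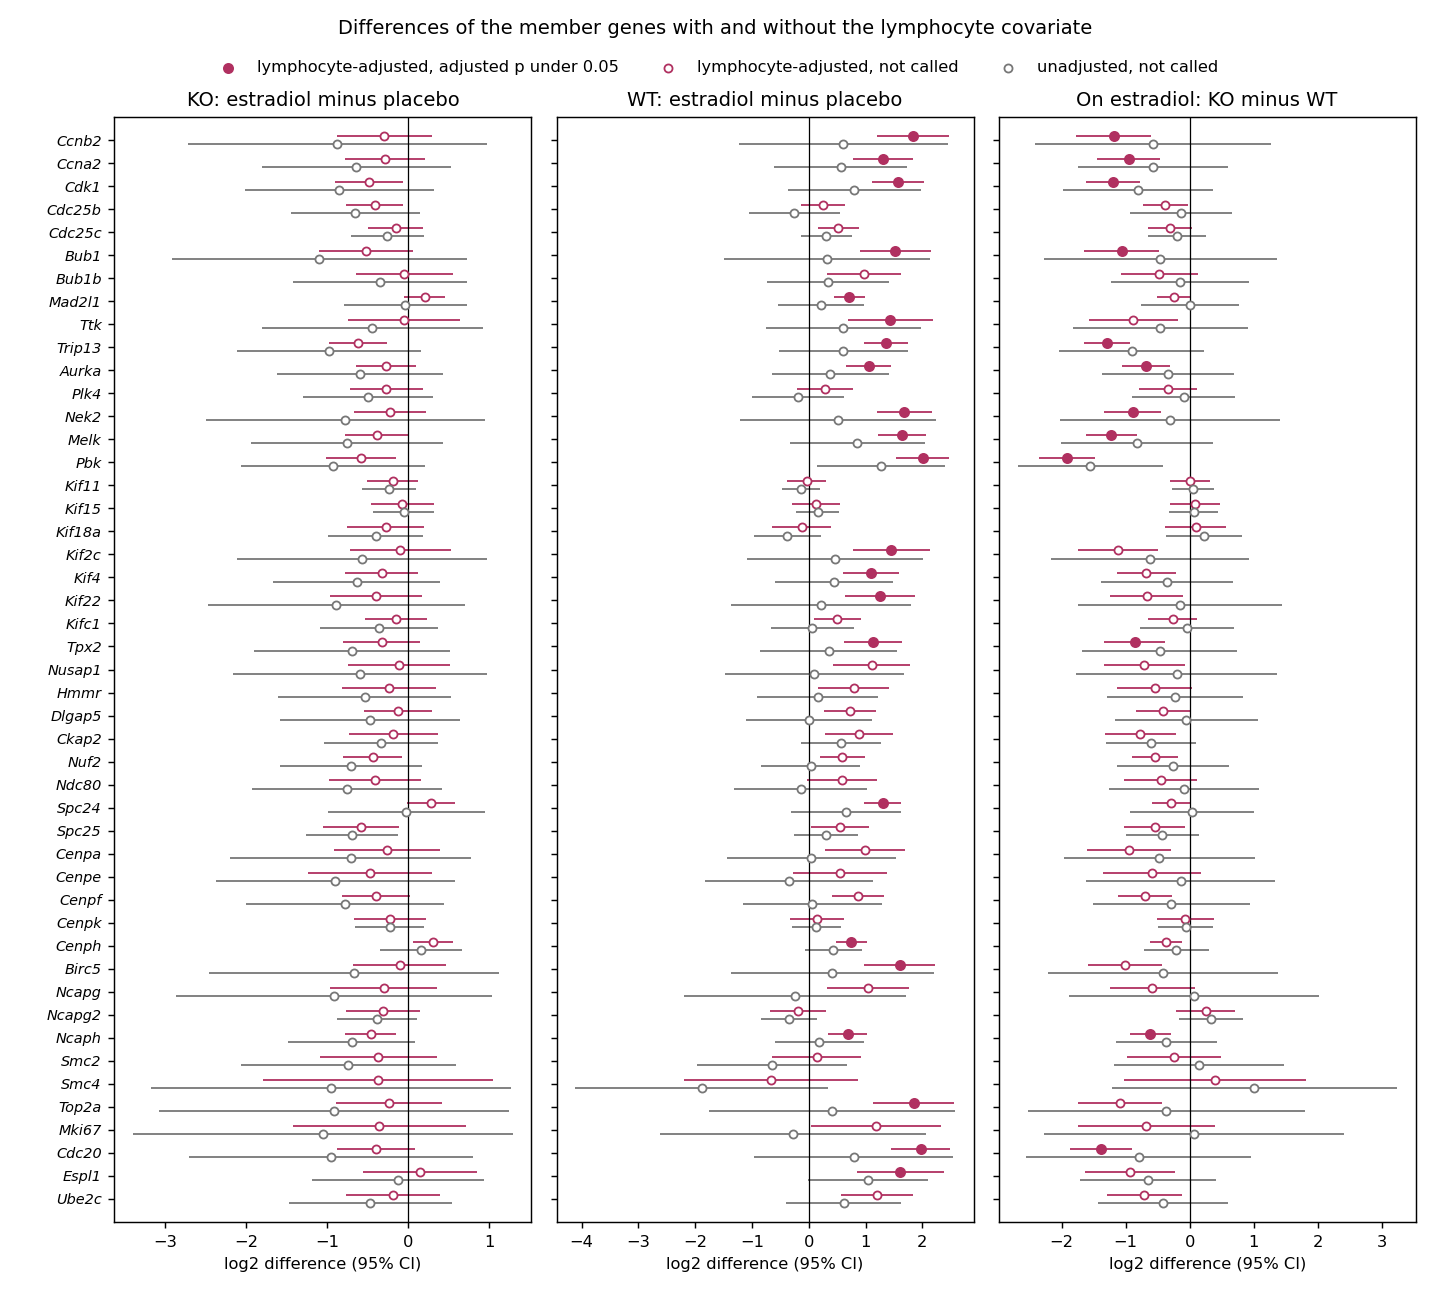
Log2 differences of the 47 members (rows) with 95% confidence intervals, for estradiol minus placebo in KO glands, the same in WT glands, and KO minus WT on estradiol, with the lymphocyte covariate (red) and without it (grey). Filled points passed an adjusted p of 0.05, which 22 members did in the WT panel, 12 in the KO minus WT panel and 0 in the KO panel.

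In KO glands the same fit called 0 of the 47 members for estradiol (limma, 0.269% of all genes), with 1 higher and 7 lower at an unadjusted p under 0.05 (6.88% and 5.45% of all genes). The median difference was -0.28, with 43 of 47 below 0 (49.7% of all genes), and it was -0.52 without KO placebo 2 and -0.17 without KO placebo 3. The lowest values belonged to Trip13 (-0.62 ± 0.16, adjusted p = 0.183), Spc25 (-0.58 ± 0.21), Pbk (-0.58 ± 0.20) and Bub1 (-0.52 ± 0.26), and the only positive ones to Cenph (0.30 ± 0.11), Spc24 (0.28 ± 0.13), Mad2l1 (0.20 ± 0.11) and Espl1 (0.15 ± 0.31). The upper end of the 95% interval was -0.15 for Pbk, 0.09 for Cdc20 and 0.42 for Top2a, each under the lower end of the interval in WT glands, 1.53, 1.45 and 1.13. These intervals are not adjusted for the number of genes, and the interaction described next was not called for Top2a. A p that misses the threshold does not show that KO glands were unresponsive.

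The difference between the responses was tested in the same fit, with the covariate, as the interaction, KO minus WT. It was negative and called for 6 members, Pbk, Cdc20, Cdk1, Melk, Trip13 and Nek2, where 0.247% of all genes were called lower and 0.253% in either direction. The 6 values were -2.59 ± 0.27 (SE, adjusted p = 0.0111) for Pbk, -2.36 ± 0.30 (0.0187) for Cdc20, -2.05 ± 0.26 (0.0187) for Cdk1, -2.02 ± 0.25 (0.0157) for Melk, -1.98 ± 0.22 (0.0111) for Trip13 and -1.91 ± 0.28 (0.0322) for Nek2. For Pbk the estradiol fold in KO glands was 0.166 of that in WT glands. The median interaction was -1.22, with 46 of 47 below 0 (49.8% of all genes) and Smc4, at 0.29, above. Several members had values as low without passing, among them Ccnb2 (-2.12, adjusted p = 0.054), Top2a (-2.08, 0.0685) and Bub1 (-2.05, 0.0567), and the values nearest 0 after Smc4 were those of Ncapg2 (-0.12), Kif11 (-0.15) and Kif18a (-0.16). None of the 6 calls was kept whichever array was left out: 0 members were called without KO placebo 1, and 2 without WT placebo 1, WT placebo 2 or KO placebo 3, against 24 without WT estradiol 2 and 12 without KO placebo 2. With a covariate slope of its own for each genotype, or with the luminal mean as a second covariate, 0 were called, and the median was -1.30 in the second case.

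**Figure D4:**
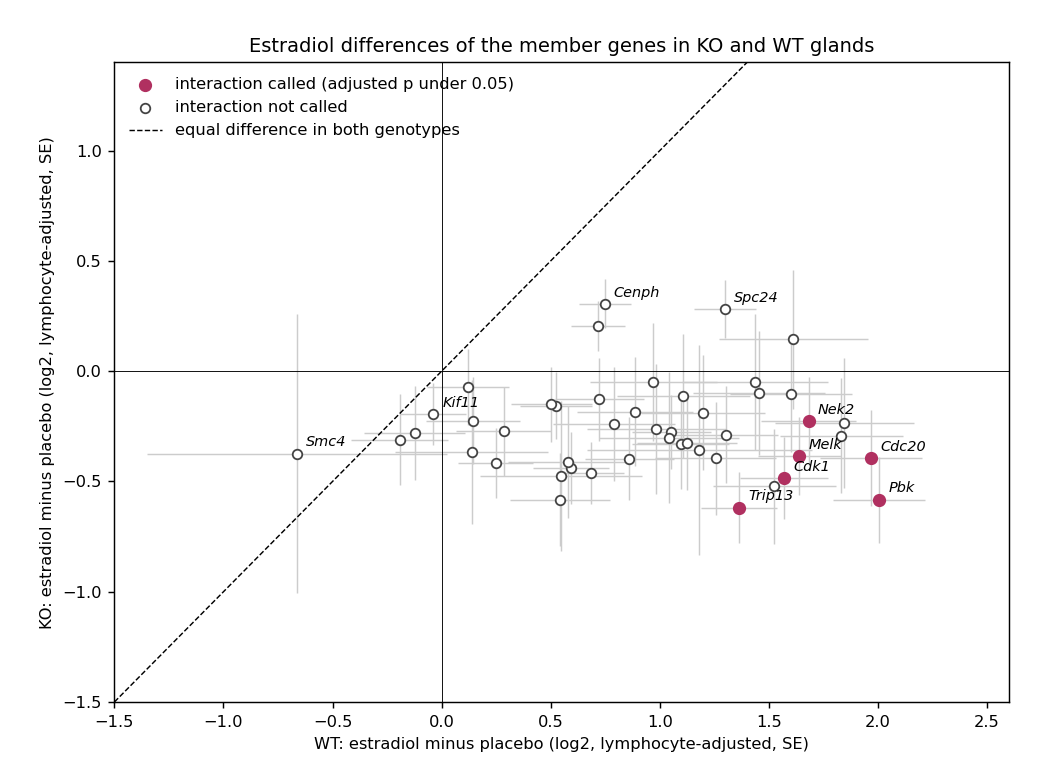
Lymphocyte-adjusted estradiol differences of the 47 members in KO glands (vertical axis) against WT glands (horizontal axis), in log2 units with SE bars. The 6 filled points passed the test of the difference, and all members but Smc4 lie below the dashed line of equal difference.

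With the covariate in the fit, KO glands were called lower than WT glands on estradiol for 12 members, and higher for none. Of all genes, 4.11% were called lower and 5.01% in either direction. Without the covariate 0 members were called, with a median of -0.26. All 12 were among the 22 called higher on estradiol in WT glands, and both comparisons use the WT estradiol arrays. They were Pbk (-1.92 ± 0.20, adjusted p = 0.00283), Cdc20 (-1.39 ± 0.22, 0.00985), Trip13 (-1.29 ± 0.16, 0.00464), Melk (-1.22 ± 0.18, 0.00883), Cdk1 (-1.19 ± 0.19, 0.0101), Ccnb2, Bub1, Ccna2, Nek2, Tpx2, Aurka and Ncaph, the last 7 between -1.19 and -0.62. The median over the members was -0.67, with 42 below 0 (45.2% of all genes), against 0.03 over all genes. The highest values were 0.39 for Smc4, 0.25 for Ncapg2, 0.09 for Kif18a and 0.08 for Kif15. The 5 calls kept whichever array was left out were Pbk, Cdc20, Trip13, Melk and Cdk1, and the count ran from 5, without WT placebo 1, WT estradiol 1, KO estradiol 2 or KO estradiol 3, to 27 without WT estradiol 2. The luminal markers differed in the same direction, 7 of 11 of them called lower with a median of -4.00, and with their mean as a second covariate 0 members were called and the median was -0.87. The part of epithelial content in this difference was not tested.

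On placebo, KO minus WT with the covariate was positive across the members but not called. All 47 members were above 0 in KO minus WT (54.3% of all genes), with a median of 0.54, and 26 were higher at an unadjusted p under 0.05 where 3.09% of all genes were, but limma called 0 (0% of all genes). The largest values were 1.02 ± 0.19 for Nek2 (adjusted p = 0.887), 0.998 ± 0.287 for Top2a, 0.98 ± 0.25 for Bub1 and 0.98 ± 0.25 for Kif22, and the smallest were 0.08 for Cenph and 0.10 for Smc4. The placebo arrays enter both estradiol responses, so the interaction holds this difference as well as the one on estradiol. Muscle content differed between the same glands: the centred mean of 6 skeletal muscle markers was -3.71, 2.21 and -4.19 in KO placebo glands and 2.20, 3.64 and -1.08 in WT placebo glands, and all 6 markers were below 0 in KO minus WT. KO placebo 3, where 39 members were highest, had the lowest muscle mean of all arrays. The luminal mean averaged -1.02 in KO placebo glands and 0.22 in WT placebo glands. With the muscle mean as a second covariate the median over the members was 0.44 and 0 were called, and in the interaction 4 of the 6 calls held, without Nek2 and Cdc20. The part of muscle and epithelial content in this difference was not tested.

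Pairs of single glands with nearly the same lymphocyte covariate (apart by less than 0.6) can be set side by side with no fit, and they did not all run alike. KO estradiol 1 had 21 of the 47 members above KO placebo 2 and 26 below, a median of -0.08, where 47.1% of all genes were above. KO estradiol 2 had 42 of 47 below KO placebo 1, with a median of -0.51, where 47.1% of all genes were below. WT estradiol 1 had 45 of 47 above WT placebo 3, a median of 0.93, and WT estradiol 3 had 46 above it, a median of 1.12, where 52.4% and 50.9% of all genes were above. Both WT pairs rest on WT placebo 3, the only WT placebo gland with few lymphocytes.

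Between genotypes, KO estradiol 1 lay below WT estradiol 1 for 41 members and below WT estradiol 3 for 44, with medians of -0.60 and -0.74, where 51.8% and 49.6% of all genes were lower. The other 2 pairs differed from each other: KO estradiol 3 lay below WT estradiol 2 for 38 members, with a median of -0.63 (47.3% of all genes lower), and KO estradiol 2 for 24, with a median of -0.03 (42.9%). In the 5 placebo pairs the KO gland was above the WT gland for 39 to 46 members, with medians from 0.37 to 0.92, where 48.9% to 58.5% of all genes were above. All but the pair of KO placebo 2 and WT placebo 3 reuse KO placebo 1 or 3 and WT placebo 1 or 2, so they are not independent. The muscle means of those KO glands were -3.71 and -4.19, and of those WT glands 2.20 and 3.64. In the remaining pair they ran the other way, 2.21 in the KO and -1.08 in the WT gland.

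Other genes of the cycle were read from lists of related names. Of 82 measured further mitotic genes, 26 were called higher on estradiol in WT glands with the covariate, where 3.05% of all genes were. In KO glands none was called (0.269% of all genes). At an unadjusted p under 0.05 (limma), 1 was higher and 8 were lower there (6.88% and 5.45% of all genes). The smallest p-values belonged to Psrc1, a spindle protein (1.83 ± 0.16, adjusted p = 0.000811), Cdca8, the borealin of the passenger complex (1.71), Anln, the anillin of the cleavage furrow (1.17), and Prc1, which bundles the midzone (1.13). Anln, alone of the listed cell cycle genes, also passed without the covariate. It read 6.18, 5.93 and 5.74 in KO estradiol glands, 6.68, 6.61 and 7.03 in KO placebo glands, 7.41, 7.67 and 7.29 in WT estradiol glands and 6.31, 6.24 and 6.41 in WT placebo glands. No 2 groups of Anln overlapped: WT estradiol glands were highest, KO placebo and WT placebo glands followed, and KO estradiol glands were lowest. Its unadjusted differences were 1.13 ± 0.16 in WT (adjusted p = 0.00611), -1.51 ± 0.16 for KO minus WT on estradiol (0.00606) and -1.96 ± 0.22 for the interaction (0.0378). None of these passed with the luminal mean as a covariate. The interaction passed in 3 of 12 fits with an array left out.

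Of 37 measured DNA replication genes, which act before mitosis in the cycle, 9 rose in WT glands on estradiol with the covariate (3.05% of all genes), among them Rrm2, a ribonucleotide reductase subunit (1.99 ± 0.15, adjusted p = 0.000371), Uhrf1 (1.29), Tk1, thymidine kinase (0.92), and Mcm10, of the replication origin (1.31). The median of that list was 0.45, against 0.98 for the 47 spindle and kinetochore genes. Rrm2 was its only call in the interaction, at -2.55 ± 0.20 (adjusted p = 0.00292). Of 22 regulators of mitotic transcription, E2f8, a repressing E2F, was the only call in any of the 5 comparisons, with 0.94 ± 0.19 in WT glands (adjusted p = 0.0258). E2f7, its relative, had -1.48 ± 0.25 in KO glands and just missed the threshold (adjusted p = 0.0526).

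The choice of probe set mattered for some members. Of 51 other probe sets that carry the symbol of a member, 20 had the opposite sign to the chosen one in the adjusted WT response, in 12 members, of which Nek2, Tpx2, Kif2c and Top2a were called. For Nek2 the other 3 probe sets gave 0.46, -0.12 and -0.13, and with the mean of all probe sets it was no longer called. Tpx2 had a second probe set that passed as well (1.27, adjusted p = 0.0124), and 2 that gave -0.20 and -0.09. Pbk, Cdk1, Melk and Spc24 have a single probe set, so nothing else on the array checks them.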

How the data were processed

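Total RNA of 12 mammary glands was hybridised to Affymetrix arrays, 1 array per mouse. The deposited values are log2 intensities made with RMA, per the submitters' processing notes, which also name limma 2.9.16; other settings are not given in the sources used here. Of 45101 probe sets, 34945 carry 1 gene symbol, 932 several, 9160 none, and 64 are controls. Each of 18193 genes was followed through the probe set with the highest mean. Arrays give no counts, so no interval for counting error is given, and the number of arrays limits the precision.

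The fit was limma 3.58.1 in R 4.3.3 on the values as deposited: means of the 4 groups over all 12 arrays, eBayes, and Benjamini-Hochberg adjustment over all genes, with a call at an adjusted p under 0.05. A second fit added the mean of Cd79a and Cd3e, centred, with 1 slope for all groups. SEs and intervals are limma's. The code was tested on simulated data. Members and lists were chosen with earlier results of these data known. Any member could be named. Values on every array are given for role representatives and the 12 called members with the smallest p, for each comparison the ends of the differences, and for other lists up to 4 called genes or the 2 with the smallest p, and Smc4 and Cks1b after their values were seen. Alternatives covered the scaling, dim genes, priors, array weights, probe sets, covariates, thresholds, the replicate number as a block and each array left out. Promoter windows are RefSeq's (GRCm38.p6), the first listed for a gene. Python 3.11.15 and its library matplotlib 3.10.9 made the figures.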

Additional observations from a re-analysis of the deposited data

Results flagged for a closer look

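The response to estradiol differed between KO and WT glands, by the interaction term of the limma fit with the lymphocyte covariate, for 6 members. The KO minus WT values were -2.59 for Pbk, -2.36 for Cdc20, -2.05 for Cdk1, -2.02 for Melk, -1.98 for Trip13 and -1.91 for Nek2, with adjusted p-values from 0.0111 to 0.0322. Among the other mitotic and replication genes named, the same term gave -2.55 for Rrm2, -2.03 for Psrc1, -1.98 for Anln, -1.65 for Stmn1, which destabilises microtubules, -1.25 for Kif18b, a kinesin, and -1.93 for Cdca8. Rrm2 was called in all 26 alternatives tried, and the other 11 genes were not called without KO placebo 1, with a slope for each genotype, or with the luminal mean as a second covariate.

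Anln also passed the interaction without the covariate, at -1.96 (limma, adjusted p = 0.0378). That call held in 3 of 12 fits with an array left out and in 2 of 8 other alternatives. Cks1b, a small subunit of Cdk complexes, had -0.77 without the covariate: the values of KO estradiol glands were all below those of KO placebo glands and those of WT estradiol glands all above those of WT placebo glands. Its interaction was not called (adjusted p = 0.549).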

How the results depend on the processing

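No called value changed sign with an array left out or in the other alternatives, apart from probe sets taken singly. In the adjusted WT response, the called members Nek2, Tpx2, Kif2c and Top2a each gave a negative value through a probe set not chosen. The 0 calls without the covariate stayed at 0 except in the WT response, where array weights called 5 members (2 higher, 3 lower, with a convergence warning) and leaving out arrays gave 0 to 1. With the covariate, the WT response had 22 calls, 10 with the luminal mean as a second covariate, and 9 to 31 with an array left out. KO minus WT on estradiol had 12 calls, 5 with Cd79a alone or a slope for each genotype, 6 after quantile normalisation, 21 at an adjusted p under 0.10, 0 with the luminal mean, and 5 to 27 with an array left out. On placebo it had 0 to 1. The interaction had 6 calls, 15 with Cd3e alone, 20 with array weights, 19 at an adjusted p under 0.10, 14 with a slope for each treatment, 0 with a slope for each genotype or the luminal mean, and 0 to 24 with an array left out. The causes were not tested. The slope on the covariate had 40 calls and 37 to 42 with an array left out.

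The replicate numbers do not pair the samples: over 18 pairs with the same number, r of the deviations had a median of -0.15 and 7 were above 0.1. With the number as a block the adjusted calls were 22 in the WT response, 8 in KO minus WT on estradiol and 6 in the interaction. A filter on dim genes left 32 members. After median scaling the median of all genes was -0.11 in the WT response and 0.19 in KO minus WT on estradiol. Before scaling these medians were 0.01 and 0.03. For the fit with the covariate, the scalings, the filter on dim genes, the priors, the array weights, the looser threshold, the separate slopes and the second covariates were chosen after seeing the data.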
